A study of Mus musculus with 12 samples.

Results

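The striatum of R6/2 mice after symptom onset was compared with the striatum of R6/2 mice before symptom onset, across all genes. The comparison used 4 of the 12 libraries of the series, chosen by their labels alone: 2 libraries of 13-week (post-symptom) HD (R6/2) striatum and 2 libraries of 8-week (pre-symptom) HD (R6/2) striatum. R6/2 mice express the start of human HTT, its exon 1 with an expanded CAG repeat, from the human HTT promoter, and both groups carry this transgene on top of their own mouse Htt gene. The labels give no treatment for any group. WT striatum of 13 weeks and of 8 weeks, with 1 library each, is given beside the HD values as a level without a test. The 4 cortical libraries of HD mice, 2 for each age, entered the fits so that the spread was estimated on more libraries. The sources used here do not state whether a library held 1 mouse or pooled mice, so the p-values measure only the spread between these libraries, which may be technical. Age and symptom stage changed together, and the 2 cannot be told apart.

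Most neurons of the striatum are GABAergic projection neurons, also called medium spiny neurons, and these are the cells that degenerate most in Huntington's disease (HD). One class expresses the dopamine receptor Drd1 with the peptides substance P and dynorphin, and the other expresses Drd2 and Adora2a with the peptide enkephalin. Both depend on cAMP and calcium signalling, with the phosphoprotein DARPP-32 (Ppp1r1b) and the phosphodiesterase Pde10a as well-known parts, and transcripts of these genes are known to be lowered in HD striatum before cells are lost.

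The assay was 3′ RNAseq (Lexogen QuantSeq), which reads the ends of polyadenylated transcripts, and the values analysed were read counts per gene. The 4 striatal HD libraries held between 8814386 and 9664091 counts. The row of the ribosomal RNA precursor Rn45s took 13.7 to 15.2% of the counts in them and 5.62 and 4.32% in the WT striatal libraries. Levels are given as CPM, which are read counts scaled to a common library size with edgeR's TMM factors, for replicate 1 and then replicate 2 of a group, and WT values are given for 13 weeks and then 8 weeks. By Xist and Y-linked counts, replicate 1 of both HD stages was male and replicate 2 was female. Defining markers of striatal projection neurons were present in all 4 HD libraries: Ppp1r1b was at 352 and 428 CPM at 13 weeks and 2086 and 735 CPM at 8 weeks, and Penk, the precursor of enkephalin, was at 236 and 219 CPM at 13 weeks and 1701 and 468 CPM at 8 weeks. Drd2 was an exception, with 3, 0, 0 and 0 counts in the HD libraries and 0 and 2 in the WT libraries, and was not tested. The 2 libraries of the 8-week group differed more than those of the 13-week group, with a chi-square per degree of freedom over genes of 73.0 against 19.3, and replicate 2 was the library that stood apart from the rest.

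In replicate 2 of the 8-week group transcripts of other tissue were high. The summed level of 20 oligodendrocyte markers was 23768 CPM there, 3908 CPM in replicate 1 of the same group and 5196 and 8625 CPM at 13 weeks. The summed level of 20 thalamus and habenula markers was 4655 CPM against 1104 CPM in replicate 1, and the sum of 12 choroid plexus and ependyma markers was 1019 against 39.3 CPM. The 47 listed genes of striatal projection neurons summed to 9935 CPM in it and to 23648 CPM in replicate 1, while the WT libraries stood at 25643 and 23709 CPM. Replicate 1 of the 8-week group was therefore at 95.8% of the WT mean for these neurons and replicate 2 at 40.3%. The 13-week libraries, at 6977 and 6995 CPM, were lower still, at a mean of 28.3% of WT.

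Single markers of these tissues were also above WT at 13 weeks, although the summed levels of thalamus and oligodendrocyte markers lay near WT. The thalamus and habenula markers summed to 927 and 1337 CPM at 13 weeks, where the WT libraries were at 1122 and 986 CPM, and the oligodendrocyte markers in WT libraries to 5901 and 6769.7 CPM. The choroid plexus and ependyma markers summed to 159 and 99.9 CPM at 13 weeks and 58.9 and 52.7 CPM in WT mice. Shox2, a transcription factor of the thalamus, had 392 and 308 counts at 13 weeks and 3904 counts in replicate 2 of the 8-week group. Replicate 1 of that group and both WT libraries had 0 counts, which allows a level of up to 0.349 CPM in that replicate, for counting error only. Ttr, the transthyretin of the choroid plexus, was at 108 and 77.8 CPM at 13 weeks and at 0.465 and 928 CPM at 8 weeks, with 0.572 and 1.21 CPM in WT mice. Slc17a6, the vesicular glutamate transporter of thalamic and other subcortical neurons, was at 22.0 and 19.1 CPM at 13 weeks and 4.77 and 234 CPM at 8 weeks, with 5.72 and 3.62 CPM in WT mice. Against replicate 1 of the 8-week group alone, Slc17a6 passed as higher at 13 weeks, with a log2 fold change of 2.11 (adjusted p = 0.00333). The thalamic kinase Prkcd was at 1.67 and 5.79 CPM at 13 weeks and 4.19 and 253 CPM at 8 weeks, so at 13 weeks it was no higher than in WT mice, at 2.39 and 7.13 CPM. Shox2 was picked after its values were seen. The striatal tests are therefore given with both 8-week libraries and also from the same fit without replicate 2 of the 8-week group, named below as the comparison against replicate 1 alone. The part that the thalamic, choroid plexus and oligodendrocyte transcripts had in the results was not tested. In these bulk samples, fewer cells of a type and less RNA per cell cannot be told apart.

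**Figure D1:**
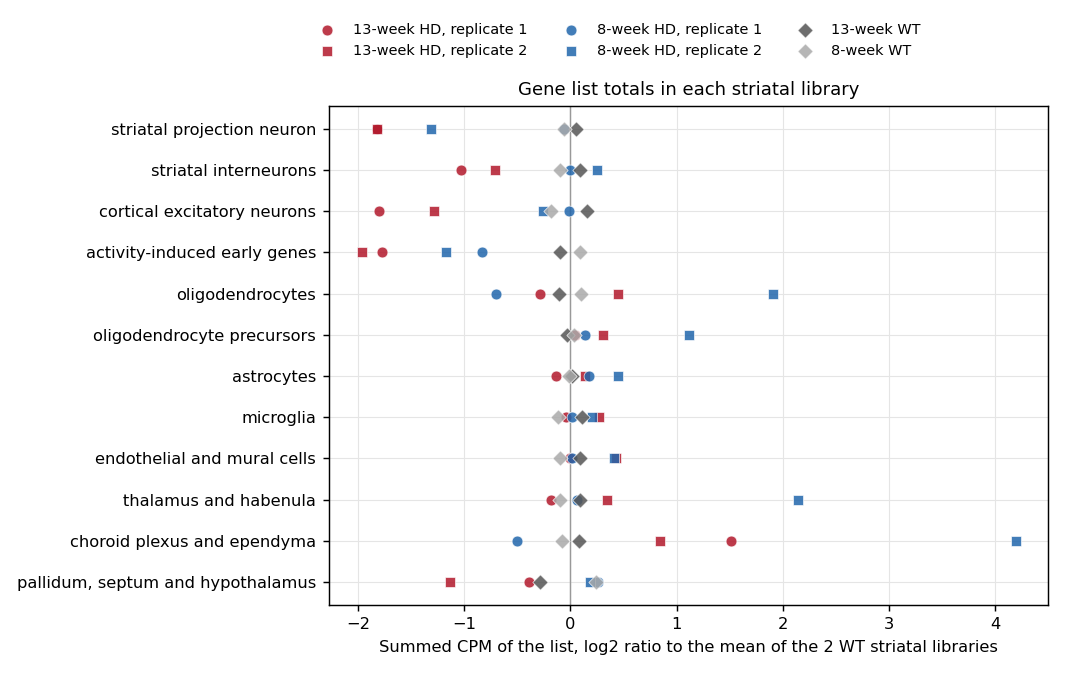
Summed CPM of 12 gene lists in each striatal library (x axis, log2 ratio to the mean of the 2 WT striatal libraries), with 1 point per library. Replicate 2 of the 8-week HD group (blue square) lies far to the right for oligodendrocyte, thalamus and choroid plexus lists. Both 13-week HD libraries (red) lie to the left of all other libraries for the projection neuron, interneuron, cortical excitatory neuron and early gene lists. The same holds for the list of pallidum, septum and hypothalamus.

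With both 8-week libraries, 23 of 14392 tested genes passed an adjusted p of 0.05 (edgeR, quasi-likelihood test, p-values adjusted after Benjamini and Hochberg), which is 0.16% of the genes tested. Of these, 21 were lower at 13 weeks (0.146%) and 2 were higher (0.0139%). Before adjustment, 1872 genes had a p under 0.05. Against replicate 1 alone, where the spread comes from the groups with 2 libraries and the lone library is assumed to vary like them, 1054 of 15009 genes passed (7.02%), 799 lower (5.32%) and 255 higher (1.7%). Leaving out replicate 1 in its place gave 1083 genes, 794 lower (5.28%) and 289 higher (1.92%), and leaving out either 8-week library also takes the distance between them out of the estimate of spread. All 23 genes were called in both of these fits. The count was 1 without replicate 1 or without replicate 2 of the 13-week striatum, 7 without either 13-week cortical library or without replicate 2 of the 8-week cortex, 0 without replicate 1 of the 8-week cortex (1470 genes at an unadjusted p under 0.05), and 447 with DESeq2 (3.11%). The gene called without replicate 1 of the 13-week striatum was not one of the 23, and the gene called without replicate 2 was. A fit of the 4 striatal libraries alone gave 0 genes (926 at an unadjusted p under 0.05). An exact permutation test of a single gene has 6 arrangements of 2 against 2 libraries and cannot give a two-sided p below 0.333.

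Of the 799 genes lower against replicate 1 alone, 536 (67.1%) were also below replicate 2 of the 8-week group in both 13-week libraries, and 500 (62.6%) were below both WT libraries as well. Of the 255 higher genes, 111 (43.5%) were above both 8-week libraries and 102 (40%) were above the WT libraries too. Over all genes tested with both 8-week libraries, 18.8% had both 13-week libraries below both 8-week libraries and 17.8% had them above, and 12.8% and 10.6% lay below or above all 4 other striatal libraries. The position against replicate 1 had entered the call, so these shares are a description. Of the 23 genes called with both libraries, 22 lay beyond all 4 other striatal libraries, and the exception was 1500004A13Rik. All 23 are named here, and Pmepa1, Sept5, Gp1bb, Dio2, Hlf, AI593442, Ckmt1 and Rnf112 are named because they passed, outside the rule for named genes.

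**Figure D2:**
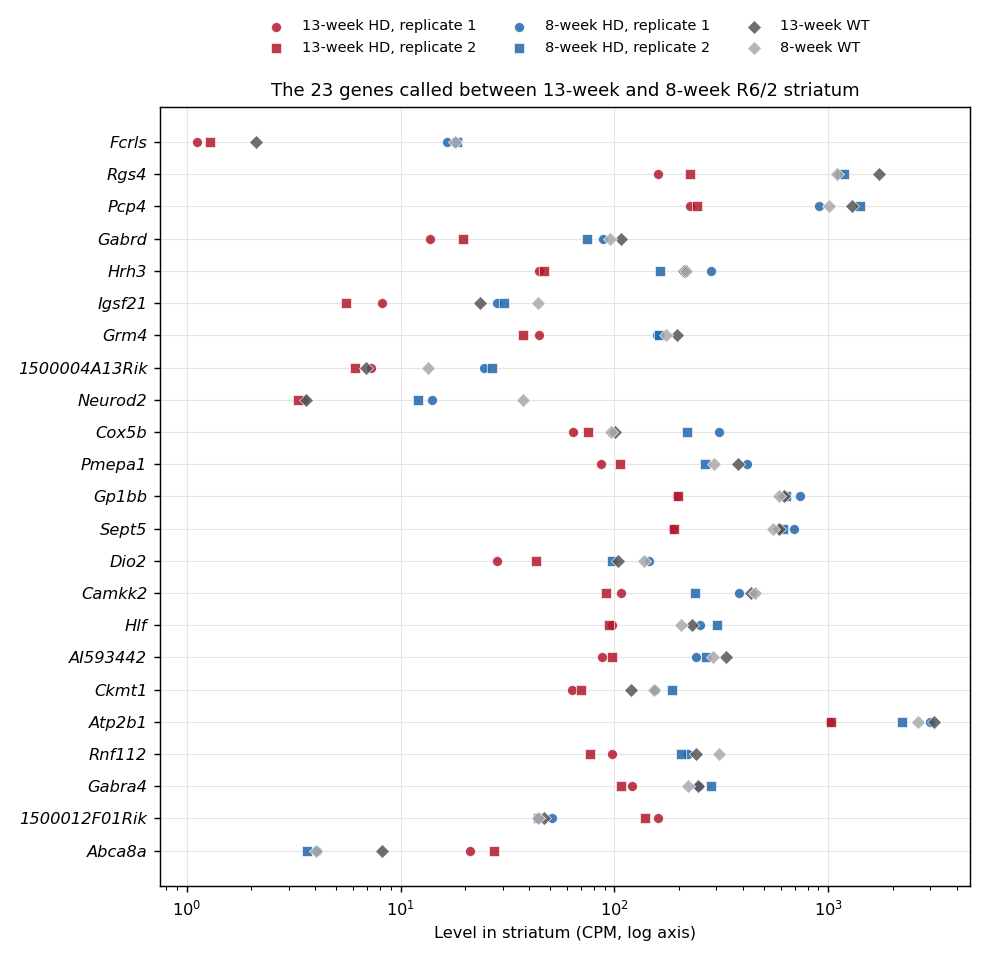
CPM (log axis) of the 23 genes called between 13-week and 8-week HD striatum, 1 point for each HD and WT striatal library, ordered by log2 fold change. The 13-week HD libraries (red) lie left of both 8-week HD libraries (blue) for 21 genes and right of them for 1500012F01Rik and Abca8a, and for Fcrls, Neurod2 and 1500004A13Rik the 13-week WT library lies near the 13-week HD libraries.

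The lowest p of the comparison was that of Rgs4, a regulator of G protein signalling that speeds up the GTPase of the G protein α subunit. The gene lies in GRCm38 on chromosome 1 from 169741477 to 169747642, minus strand. It was at 160.5 and 227 CPM at 13 weeks and at 1126 and 1191 CPM at 8 weeks, with 1736 and 1105 CPM in WT mice. Both 13-week libraries were thus far below all 4 other libraries, and both 8-week libraries lay close together, unlike the summed projection neuron genes. The log2 fold change was -2.55 (SE 0.20, adjusted p = 0.00742) with both 8-week libraries and -2.54 (SE 0.18, adjusted p = 6.67e-06) against replicate 1 alone, and with both libraries the level was 5.87-fold lower. In HD cortex the log2 change between the same ages was -2.49 (adjusted p = 0.00371).

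A pair of receptors that act through G proteins, Grm4 and Hrh3, also passed. Grm4, a presynaptic metabotropic glutamate receptor (chromosome 17 from 27422387 to 27521403, minus strand), was at 44.5 and 37.5 CPM at 13 weeks and 158 and 161 CPM at 8 weeks, with 195 and 175 CPM in WT mice. Grm4 had a log2 fold change of -1.93 (SE 0.18, adjusted p = 0.00742) with both 8-week libraries and -1.94 (SE 0.20, adjusted p = 4.01e-05) against replicate 1 alone. Hrh3, the histamine receptor that couples to inhibitory G proteins (chromosome 2 from 180099465 to 180104488, minus strand), was at 44.4 and 46.8 CPM against 283 and 163 CPM, with 211 and 216 CPM in WT mice. Hrh3 had a log2 fold change of -2.26 (SE 0.26, adjusted p = 0.0141) with both 8-week libraries and -2.63 (SE 0.17, adjusted p = 2.44e-06) against replicate 1 alone. Neither gene overlapped between the ages. The annotation places Gm49790 on the strand of Grm4 and Gm49789 on the opposite strand, and Gm17180 opposite Hrh3, and the counting rule was not given, so reads of these partners cannot be told apart.

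Subunits of the GABA A receptor were lower as well. Gabrd encodes the δ subunit of receptors outside the synapse, which carry tonic inhibition, and Gabra4 the α4 subunit that often accompanies it. Gabrd (chromosome 4 from 155384980 to 155398112, minus strand) was at 13.7 and 19.5 CPM at 13 weeks, at 88.1 and 74.1 CPM at 8 weeks and at 107 and 95.2 CPM in WT mice. Gabrd had a log2 fold change of -2.26 (SE 0.22, adjusted p = 0.00742) with both 8-week libraries and -2.41 (SE 0.23, adjusted p = 2.41e-05) against replicate 1 alone. Gabra4 was at 121 and 108 CPM against 248 and 283 CPM, and its log2 fold change was -1.19 (SE 0.16, adjusted p = 0.0326) with both 8-week libraries and -1.11 (SE 0.16, adjusted p = 0.000492) against replicate 1 alone. No other of the 20 tested genes for GABA synthesis, transport and receptors passed with both 8-week libraries. Against replicate 1 alone, 4 of 21 were lower (5.32% of all genes) and 0 higher, the other 2 being Gabbr1 and Gad2, of which Gad2 was named after its values were seen. Without replicate 1 the median log2 fold change of the 21 genes was -0.17. The median log2 fold change of this list was -0.25 with both libraries and -0.28 against replicate 1 alone, beside 0.0038 and 0.017 over all genes tested.

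Calcium handling formed the next group. Pcp4, a small protein that binds calmodulin (chromosome 16 from 96467606 to 96525793, plus strand), was at 227 and 243 CPM at 13 weeks and 907 and 1412 CPM at 8 weeks, with 1295 and 1012 CPM in WT mice. The log2 fold change was -2.28 (SE 0.25, adjusted p = 0.0136) with both 8-week libraries and -1.95 (SE 0.18, adjusted p = 1.61e-05) against replicate 1 alone. Camkk2, the kinase that activates calmodulin kinases and AMPK, was at 107 and 91.1 against 384 and 238 CPM, with a log2 fold change of -1.62 with both 8-week libraries (adjusted p = 0.034) and -1.95 against replicate 1 alone (adjusted p = 8.33e-06). Atp2b1, a calcium pump of the plasma membrane, was at 1015 and 1036 against 3002 and 2222 CPM, and its change was -1.32 with both 8-week libraries (adjusted p = 0.0327) and -1.55 against replicate 1 alone (adjusted p = 1.8e-05). All 3 had both 13-week libraries below the 8-week and WT libraries. Of the 40 tested genes of the calcium signalling list, Camkk2 and Atp2b1 passed with both 8-week libraries, and 22 were lower and 0 higher against replicate 1 alone, where 5.32% of all genes were lower.

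Among the other members of that list were the calcineurin subunit Ppp3ca, at 2350.0 and 2107 CPM at 13 weeks and 7074 and 3013 CPM at 8 weeks, and Camk4, a nuclear calmodulin kinase, at 91.5 and 122 and 428 and 209 CPM. The log2 differences of Ppp3ca were -1.14 with both 8-week libraries (adjusted p = 0.22) and -1.66 against replicate 1 alone (adjusted p = 1.23e-05), and those of Camk4 were -1.54 with both 8-week libraries (adjusted p = 0.0961) and -2.0 against replicate 1 alone (adjusted p = 1.23e-05). Camk1g, another calmodulin kinase, was at 18.2 and 7.29 CPM against 79.3 and 16.7 CPM, with log2 differences of -1.87 with both 8-week libraries (adjusted p = 0.342) and -2.62 against replicate 1 alone (adjusted p = 0.0041). Ryr1, a calcium release channel of the endoplasmic reticulum, was at 2.51 and 0.750 against 28.2 and 9.01 CPM. For Ryr1 the 2 ages did not overlap, with log2 fold changes of -3.44 with both 8-week libraries (adjusted p = 0.111) and -4.08 against replicate 1 alone (adjusted p = 0.001). For Camk1g they overlapped, and Ppp3ca and Camk1g were picked after their values were seen. The median of the list was -0.69 with both 8-week libraries, -1.01 against replicate 1 alone and -0.32 without replicate 1. Its summed level was 8722 and 9183 CPM at 13 weeks, 22745 and 12963 CPM at 8 weeks and 24058 and 20081 CPM in WT mice, so replicate 2 of the 8-week group again lay between replicate 1 and the 13-week libraries.

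Genes of mitochondria and of the synapse were among the rest of the 21 lower genes. Cox5b, a subunit of cytochrome c oxidase, was at 64.3 and 74.9 CPM at 13 weeks and 307 and 219 CPM at 8 weeks, with log2 fold changes of -1.89 with both 8-week libraries (adjusted p = 0.0321) and -2.14 against replicate 1 alone (adjusted p = 6.6e-05). WT mice were at 100.4 and 96.5 CPM, so both 8-week HD libraries were above WT and both 13-week libraries below it. Ckmt1, the mitochondrial creatine kinase, was at 63.5 and 69.8 against 154 and 187 CPM, with log2 differences of -1.33 with both 8-week libraries (adjusted p = 0.0219) and -1.21 against replicate 1 alone (adjusted p = 0.000245). Sept5, a septin of presynaptic terminals, and Gp1bb, a platelet glycoprotein, overlap on the minus strand of chromosome 16, from 18620502 to 18629954 and from 18620317 to 18622403. Their counts were close, at 2021 and 2103 in replicate 1 of 13 weeks, and their reads cannot be told apart. Sept5 was at 188 and 190.1 against 695 and 613 CPM, with log2 differences of -1.76 with both 8-week libraries (adjusted p = 0.00742) and -1.88 against replicate 1 alone (adjusted p = 1e-05).

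Igsf21, an adhesion molecule of the immunoglobulin superfamily, was at 8.18 and 5.57 CPM at 13 weeks and 28.3 and 30.4 CPM at 8 weeks, with log2 fold changes of -2.06 with both 8-week libraries (adjusted p = 0.0219) and -2.03 against replicate 1 alone (adjusted p = 0.000354). In cortex its log2 difference was -0.31 (adjusted p = 0.613). Pmepa1, an inhibitor of TGF-β signalling, was at 86.3 and 106 against 419 and 267 CPM, with log2 fold changes of -1.80 with both 8-week libraries (adjusted p = 0.0326) and -2.12 against replicate 1 alone (adjusted p = 1.06e-05). Rnf112, a ring finger protein, was at 97.5 and 77.1 against 221 and 206 CPM, with log2 fold changes of -1.26 with both 8-week libraries (adjusted p = 0.0326) and -1.34 against replicate 1 alone (adjusted p = 0.000225). AI593442, a protein-coding gene without a functional name in the annotation, was at 87.1 and 97.5 against 241 and 269 CPM, with log2 fold changes of -1.44 with both 8-week libraries (adjusted p = 0.0187) and -1.38 against replicate 1 alone (adjusted p = 0.000145). In these 4 genes neither the HD ages overlapped nor did a WT library reach the 13-week HD level. 1500004A13Rik, a noncoding transcript, was at 7.25 and 6.11 against 24.7 and 26.7 CPM, with log2 fold changes of -1.91 with both 8-week libraries (adjusted p = 0.0362) and -1.88 against replicate 1 alone (adjusted p = 0.00213), while the 13-week WT library, at 6.87 CPM, lay between the 13-week HD libraries. The gene overlaps 5830417I10Rik on the opposite strand.

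Fcrls, an Fc receptor-like gene that marks resident microglia, had the largest fold change of the 23. It was at 1.12 and 1.29 CPM at 13 weeks and at 16.5 and 18.3 CPM at 8 weeks, from 12 and 12 against 142 and 171 counts. The log2 fold change was -3.82 (SE 0.43, adjusted p = 0.0141) with both 8-week libraries and -3.77 (SE 0.48, adjusted p = 0.000214) against replicate 1 alone. The WT libraries were at 2.10 and 18.0 CPM, so WT mice also held the low level at 13 weeks and the high level at 8 weeks. It was the only one of 20 microglia markers to pass with both 8-week libraries, and the summed level of these markers was 630.4 and 781 CPM at 13 weeks and 655 and 748 CPM at 8 weeks. Ctss, the lysosomal cathepsin S of microglia, was at 110.1 and 172 against 70.4 and 94.98 CPM without passing, with log2 differences of 0.80 with both 8-week libraries (adjusted p = 0.276) and 1.0 against replicate 1 alone (adjusted p = 0.061) and a 95% interval with both libraries from 0.18 to 1.41.

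Neurod2, a transcription factor of cortical excitatory neurons that is low in striatum, was at 3.53 and 3.32 CPM at 13 weeks and 14.0 and 12.1 CPM at 8 weeks, with log2 fold changes of -1.89 with both 8-week libraries (adjusted p = 0.00742) and -2.02 against replicate 1 alone (adjusted p = 2.73e-05). The WT libraries differed in the same direction, at 3.63 and 37.4 CPM. Of the 22 markers of these neurons, 9 had both 13-week HD libraries below both 8-week ones, where 18.8% of all genes did. Slc17a7, the vesicular glutamate transporter of cortical neurons, was at 2.70 and 5.68 CPM against 25.0 and 89.4 CPM with 7.06 and 66.2 CPM in WT mice, and Neurod6, another such factor, at 1.49 and 0.107 against 7.56 and 5.90 CPM with 0.668 and 16.4 CPM in WT mice. Of 22 cortical excitatory neuron markers, 1 was lower with both 8-week libraries (0.146% of all genes) and 7 against replicate 1 alone (5.32% of all genes). Their sum was 2079 and 2981 CPM at 13 weeks, 7196 and 6066 CPM at 8 weeks and 8089 and 6392 CPM in WT mice, and Camk2n1, an inhibitor of calmodulin kinase II that striatal neurons also express, made up most of it. The part that cortical transcripts had in these differences was not tested.

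A pair of the lower genes carry regulatory and hormonal roles, and their promoters are shown with that of Rgs4. Hlf, a transcription factor of the PAR bZIP family, was at 97.6 and 94.4 CPM at 13 weeks and 253 and 301 CPM at 8 weeks, with 232 and 205 CPM in WT mice and log2 fold changes of -1.50 with both 8-week libraries (adjusted p = 0.0125) and -1.39 against replicate 1 alone (adjusted p = 5.13e-05). Dio2, the deiodinase that turns thyroxine into active thyroid hormone, was at 28.3 and 42.9 against 145 and 97.6 CPM, with 104 and 137 CPM in WT mice and log2 differences of -1.74 with both 8-week libraries (adjusted p = 0.0362) and -2.03 against replicate 1 alone (adjusted p = 3.08e-05). In both genes the 13-week libraries lay below all the others. Projection neurons answer cAMP through CREB, which binds the cAMP response element, and 16 of the 21 lower genes had an entry in the RefSeq promoter table (GRCm38.p6). The 250 bases before the first listed start were searched on both strands for the full element TGACGTCA, for its core TGACG, which the full element contains, for the GC box GGGCGG and for the TATA box TATAAA. The full element was in 2 of the 16, Dio2 and Hlf, and in 2.73% of the 11422 promoters of tested genes. The core was in 5 of 16 and in 26.4% of all, the GC box in 10 of 16 and 58.4%, and the TATA box in 4 of 16 and 6.39%. A match is a description of letters and not a site. Gabrd, Grm4, Pmepa1, Sept5 and Rnf112 had no entry. The sequences of Rgs4, which has the core on either strand and a TATA box, and of Dio2 and Hlf, which have the full element, follow from 5′ to 3′, with the core, the full element and the GC box in capitals.
Rgs4 (chr1:169747643-169747892, minus strand): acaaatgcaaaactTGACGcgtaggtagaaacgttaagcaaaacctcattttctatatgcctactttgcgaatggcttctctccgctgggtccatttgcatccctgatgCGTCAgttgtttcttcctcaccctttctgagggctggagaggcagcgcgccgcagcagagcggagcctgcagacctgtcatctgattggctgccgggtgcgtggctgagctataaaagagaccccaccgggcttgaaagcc
Dio2 (chr12:90739039-90739288, minus strand): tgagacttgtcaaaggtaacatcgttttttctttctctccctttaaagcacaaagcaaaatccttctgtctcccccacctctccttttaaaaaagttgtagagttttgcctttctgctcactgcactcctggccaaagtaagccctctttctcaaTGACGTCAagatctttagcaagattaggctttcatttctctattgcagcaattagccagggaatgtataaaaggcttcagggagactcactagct
Hlf (chr11:90390918-90391167, minus strand): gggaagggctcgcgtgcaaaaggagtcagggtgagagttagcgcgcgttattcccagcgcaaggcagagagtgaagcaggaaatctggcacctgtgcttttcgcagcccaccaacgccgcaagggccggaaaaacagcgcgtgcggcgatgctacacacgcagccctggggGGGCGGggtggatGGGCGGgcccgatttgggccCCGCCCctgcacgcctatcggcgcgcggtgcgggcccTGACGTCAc

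Both genes that were higher at 13 weeks were also above WT. 1500012F01Rik, named Zfas1 in RefSeq, is a noncoding transcript that hosts small nucleolar RNAs (chromosome 2 from 167062934 to 167065862, plus strand) and overlaps Znfx1 on the opposite strand, so that their reads cannot be told apart without a stated strand rule. It was at 159.9 and 139 CPM at 13 weeks and 51.1 and 44.2 CPM at 8 weeks, with 46.9 and 43.8 CPM in WT mice. Its log2 fold change was 1.68 (SE 0.18, adjusted p = 0.0125) with both 8-week libraries and 1.55 (SE 0.20, adjusted p = 0.000246) against replicate 1 alone, and 1.42 (adjusted p = 0.0202) in cortex. Abca8a, a membrane transporter of the ATP-binding cassette family (chromosome 11 from 110025634 to 110095978, minus strand), was at 21.1 and 27.2 CPM against 4.07 and 3.65 CPM, with 8.21 and 4.02 CPM in WT mice. Its log2 fold change was 2.67 (SE 0.36, adjusted p = 0.0326) with both 8-week libraries and 2.57 (SE 0.46, adjusted p = 0.00292) against replicate 1 alone. In cortex the log2 difference of Abca8a was 2.14 (adjusted p = 0.0512). Neither gene overlapped between the ages.

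The genes of striatal projection neurons were lower as a group, and how many passed depended on replicate 2 of the 8-week group. Of 47 listed genes 44 were tested, and Drd2, Gpr6 and Gpr52 fell under the filter on low counts. With both 8-week libraries, 3 of 44 passed, Rgs4, Hrh3 and Grm4, all lower. Against replicate 1 alone, 35 of 44 were lower and 0 higher, where 5.32% of all genes were lower, and without replicate 1 10 of 44 were lower and 1 higher, where 5.28% of all genes were lower. The median log2 fold change was -1.20, -1.78 and -0.31 in the 3 fits. In 29 of 44 genes both 13-week libraries lay below all 4 other striatal libraries, where 12.8% of all genes did. In 41 of 44 genes replicate 2 of the 8-week group was below replicate 1, and in 27 of 44 it lay between replicate 1 and the 13-week libraries. DESeq2 with both libraries called 22 of 44 lower, where it called 378 of all 14392 genes lower. The DESeq2 counts given for the lists below stand beside the 3.11% of all genes that it called in either direction.

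**Figure D3:**
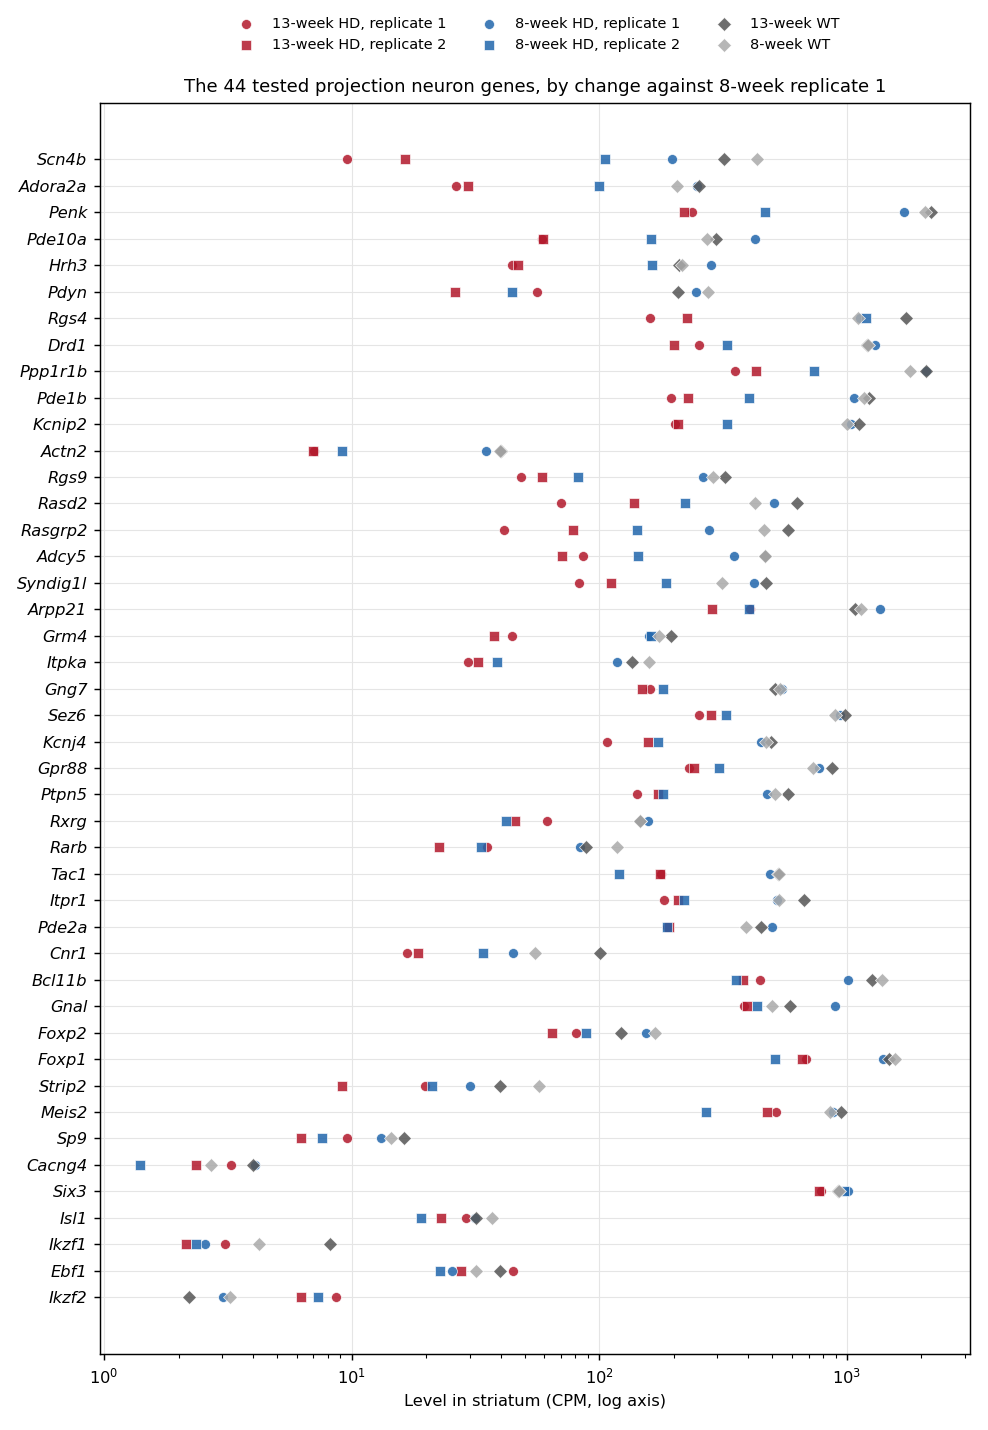
CPM (log axis) of the 44 tested projection neuron genes in each HD and WT striatal library, ordered by log2 fold change against replicate 1 of the 8-week group. From Scn4b to Ptpn5 the 13-week HD libraries (red) lie left of the other libraries except for Pdyn and Arpp21, which overlap replicate 2 of the 8-week group (blue square), and from Six3 to Ikzf2 no gene passed.

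Scn4b, the β4 subunit of the sodium channel that shapes resurgent current, had the largest difference on the list. It was at 9.58 and 16.4 CPM at 13 weeks, 197 and 106 CPM at 8 weeks and 320.2 and 435 CPM in WT mice, without overlap. The log2 fold change was -3.51 (SE 0.47, adjusted p = 0.053) with both 8-week libraries and -3.93 (SE 0.38, adjusted p = 0.000298) against replicate 1 alone, the latter a 15.2-fold lower level. Adora2a, the adenosine receptor of enkephalin neurons, was at 26.3 and 29.6 against 248 and 100.02 CPM, with 252 and 206 CPM in WT mice. Its log2 fold change was -2.60 (SE 0.43, adjusted p = 0.0753) with both 8-week libraries and -3.15 (SE 0.24, adjusted p = 7.17e-06) against replicate 1 alone. Drd1, the dopamine receptor of the other neuron class, which was picked after its values were seen, was at 252 and 201 CPM against 1299 and 327 CPM, with 1207 and 1214 CPM in WT mice. Its log2 fold change was -1.81 (SE 0.57, adjusted p = 0.276) with both 8-week libraries and -2.52 (SE 0.21, adjusted p = 1.27e-05) against replicate 1 alone. In Drd1 and Adora2a replicate 2 of the 8-week group lay between replicate 1 and the 13-week libraries.

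The peptides of both neuron classes were picked in the same way. Penk, the precursor of enkephalin, was at 236 and 219 CPM at 13 weeks, 1701 and 468 CPM at 8 weeks and 2184 and 2075 CPM in WT mice, with log2 fold changes of -2.21 with both 8-week libraries (adjusted p = 0.19) and -2.90 against replicate 1 alone (adjusted p = 8.44e-06). Tac1, the precursor of substance P, was at 178 and 176 against 489 and 121 CPM, with 529 and 532 CPM in WT mice and log2 differences of -0.75 with both 8-week libraries (adjusted p = 0.624) and -1.46 against replicate 1 alone (adjusted p = 7.2e-05). Pdyn, the precursor of dynorphin, was at 55.8 and 26.1 against 247 and 44.3 CPM, and its log2 differences were -1.79 with both 8-week libraries (adjusted p = 0.409) and -2.58 against replicate 1 alone (adjusted p = 0.0734). For Tac1 and Pdyn the ages overlapped, with replicate 2 of the 8-week group below both 13-week libraries for Tac1 and between them for Pdyn. Without replicate 1 the log2 difference of Tac1 was 0.56 (adjusted p = 0.0891), the opposite sign.

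Enzymes of cyclic nucleotide signalling follow. Adcy5, the main adenylyl cyclase of striatum, was at 86.2 and 70.4 CPM at 13 weeks, 351 and 143 CPM at 8 weeks and 467 and 467 CPM in WT mice, with log2 fold changes of -1.62 with both 8-week libraries (adjusted p = 0.129) and -2.16 against replicate 1 alone (adjusted p = 8.53e-06). Pde10a, which degrades cAMP and cGMP, was at 58.6 and 59.2 against 427 and 162 CPM, with 295 and 271 CPM in WT mice and log2 differences of -2.29 with both 8-week libraries (adjusted p = 0.0971) and -2.86 against replicate 1 alone (adjusted p = 6.67e-06). Pde1b, a phosphodiesterase activated by calmodulin, was at 195 and 228 against 1069 and 404 CPM, with log2 differences of -1.77 with both 8-week libraries (adjusted p = 0.128) and -2.34 against replicate 1 alone (adjusted p = 2.44e-06). In all 3 both 13-week libraries lay below the 8-week and WT libraries. Ppp1r1b, whose levels are given above, had log2 differences of -1.82 with both 8-week libraries (adjusted p = 0.19) and -2.42 against replicate 1 alone (adjusted p = 7.71e-05). Kcnip2, a potassium channel partner, was at 202 and 209 against 1035 and 329 CPM and had log2 differences of -1.69 with both 8-week libraries (adjusted p = 0.228) and -2.33 against replicate 1 alone (adjusted p = 2.05e-05). Of these, Pde10a follows the rule for named genes and the others were picked after their values were seen.

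Among transcription factors of the same neurons, Six3, Ebf1 and Foxp1 varied in the direction and size of their difference. The other listed factors are not described here. Six3, a factor of striatal development, was at 784 and 771 CPM at 13 weeks and 1014 and 976 CPM at 8 weeks, with 920.2 and 929 CPM in WT mice and log2 fold changes of -0.33 with both 8-week libraries (adjusted p = 0.866) and -0.38 against replicate 1 alone (adjusted p = 0.884). Both 13-week libraries of Six3 lay below the 8-week and WT libraries, and its log2 difference stayed between -0.38 and -0.31 over 14 settings. The 95% interval against replicate 1 alone, from -3.02 to 2.25, was wide, and Six3os1 lies on the opposite strand of Six3. Ebf1, a factor of Drd1 neurons, was at 44.7 and 27.5 against 25.5 and 22.7 CPM, and its log2 differences were 0.61 with both 8-week libraries (adjusted p = 0.428) and 0.51 against replicate 1 alone (adjusted p = 0.464). Foxp1 was at 685 and 658 against 1395 and 512 CPM, with 1483 and 1558 CPM in WT mice and log2 differences of -0.47 with both 8-week libraries (adjusted p = 0.67) and -1.05 against replicate 1 alone (adjusted p = 0.000358), but replicate 2 of the 8-week group was below both 13-week libraries. These 3 were picked after their values were seen.

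The difference between the ages in HD striatum was then set against that in HD cortex, to ask whether it was larger in striatum. With all 8 HD libraries no gene differed between the regions at an adjusted p under 0.05 by edgeR (0%), although 519 had an unadjusted p under 0.05 and DESeq2 called 17. Of the 23 genes called in striatum 15 were also called in cortex in the same direction, where 0.591% of all genes were called, among them Rgs4, Grm4, Gabrd and Camkk2. Without replicate 2 of the 8-week striatum, 153 of 15009 genes differed between regions (1.02%), 71 with a more positive and 82 (0.546%) with a more negative difference in striatum. Without replicate 1 in its place the count was 168. Of the 44 projection neuron genes, 13 were among them and all 13 were more negative in striatum. Adora2a was low in cortex, at 1.38 and 2.31 CPM at 13 weeks and 0.732 and 1.41 CPM at 8 weeks, and the ages overlapped. Its log2 difference between the ages there was 0.76 (adjusted p = 0.651, edgeR with all 8 HD libraries). Striatum less cortex was -3.93 for this gene without replicate 2. Drd1 had 0.35 in cortex, and striatum less cortex was -2.89 (adjusted p = 0.000563). For Pde10a these were 0.18 and -3.06 (adjusted p = 0.00041). Adcy5, Pde1b and Gng7, a G protein γ subunit, differed between regions by -2.40 (adjusted p = 0.00041), -2.16 (adjusted p = 0.00041) and -1.73 (adjusted p = 0.00257). Ppp1r1b, at -1.73 in cortex, did not pass the test of the regions, at -0.71 (adjusted p = 0.445), and neither did Rgs4, at -0.075 (adjusted p = 0.96). Gng7 was picked after its values were seen.

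**Figure D4:**
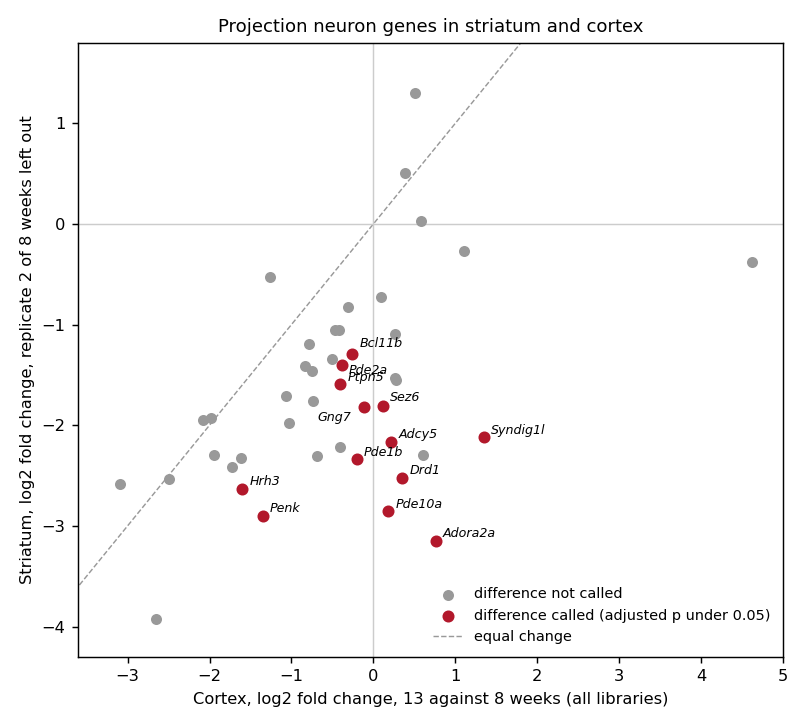
Log2 fold change between 13 and 8 weeks in HD cortex (x axis, all libraries) and in HD striatum without replicate 2 of the 8-week group (y axis) for the 44 tested projection neuron genes, with the 13 genes that differed between regions in red. These 13 lie below the dashed line of equal difference, and Rgs4 is among the grey points close to it.

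Of 23 genes induced by neuronal activity, 0 passed with both 8-week libraries (edgeR, with 2 by DESeq2). Their median log2 fold change was -0.85 with both libraries and -0.72 against replicate 1 alone. In 16 of the 23 both 13-week libraries lay below all 4 other striatal libraries, where 12.8% of all genes did. Egr1, an early transcription factor, was at 111 and 62.5 CPM at 13 weeks, 240.2 and 149 CPM at 8 weeks and 432 and 416 CPM in WT mice, with log2 fold changes of -1.13 with both 8-week libraries (adjusted p = 0.289) and -1.46 against replicate 1 alone (adjusted p = 0.19). Npas4, an early factor specific to neurons, was at 0.651 and 0.536 against 7.56 and 2.89 CPM, with 10.7 and 18.9 CPM in WT mice and log2 differences of -3.07 with both 8-week libraries (adjusted p = 0.244) and -3.64 against replicate 1 alone (adjusted p = 0.0325). Homer1, a scaffold of glutamate receptors with an induced short form, was at 79.3 and 74.9 against 198 and 85.9 CPM with log2 differences of -0.85 with both 8-week libraries (adjusted p = 0.331) and -1.36 against replicate 1 alone (adjusted p = 9.49e-05).

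For several of these genes the 8-week HD libraries were themselves under WT, a description with 1 WT library per age. Egr2 was at 0.279 and 0.750 CPM at 13 weeks and 3.26 and 5.47 CPM at 8 weeks, with 23.7 and 23.8 CPM in WT mice. The synaptic gene Arc was at 13.4 and 15.9 CPM at 13 weeks and 40.1 and 47.7 CPM at 8 weeks, with 89.1 and 142 CPM in WT mice. The nuclear receptor Nr4a1 was at 14.0 and 8.04 CPM at 13 weeks and 15.9 and 17.2 CPM at 8 weeks, with 72.8 and 134 CPM in WT mice. In these 3 genes both WT libraries were above all 4 HD libraries. Summed over the list, the 13-week libraries were at 516 and 451 CPM, the 8-week libraries at 988 and 783 CPM and the WT libraries at 1645 and 1874 CPM. Here replicate 1 of the 8-week group was at 56.2% of the WT mean, where its projection neuron genes had been at 95.8%. Jun was an exception, at 30.8 and 44.2 CPM at 13 weeks and 58.1 and 70.9 CPM at 8 weeks, since the WT libraries, at 22.8 and 45.1 CPM, were below both 8-week HD libraries. Arc and Nr4a1 were picked after their values were seen.

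Of 34 tested glutamate receptor and scaffold genes, Grm4 passed with both 8-week libraries and 15 were lower and 0 higher against replicate 1 alone, where 5.32% of all genes were lower. The medians were -0.66 with both libraries, -0.73 against replicate 1 alone and -0.42 without replicate 1. Grm3, a metabotropic receptor of glia and neurons, was at 31.8 and 32.4 CPM at 13 weeks and 87.7 and 66.5 CPM at 8 weeks, with log2 differences of -1.23 with both 8-week libraries (adjusted p = 0.0641) and -1.45 against replicate 1 alone (adjusted p = 0.000348). Dlgap3, a postsynaptic scaffold of striatal synapses, was at 81.0 and 101 against 236 and 175 CPM, with log2 differences of -1.14 with both 8-week libraries (adjusted p = 0.0641) and -1.37 against replicate 1 alone (adjusted p = 0.00014). Grin2b, the NMDA receptor subunit, was at 157 and 137 against 251 and 270.3 CPM, and Gria3, an AMPA receptor subunit, at 136 and 123 against 273 and 214 CPM. The log2 differences of Grin2b were -0.80 with both 8-week libraries (adjusted p = 0.091) and -0.77 against replicate 1 alone (adjusted p = 0.00765), and those of Gria3 were -0.88 with both 8-week libraries (adjusted p = 0.0961) and -1.07 against replicate 1 alone (adjusted p = 0.000902). In these 4 the 13-week libraries lay below the 8-week and WT libraries.

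Of 41 tested potassium channel genes, 0 passed with both 8-week libraries (edgeR, with 6 by DESeq2), and 14 were lower and 2 higher against replicate 1 alone, where 5.32% of all genes were lower and 1.7% higher. Kcnip3, a channel partner that also binds DNA, was at 18.2 and 25.7 CPM at 13 weeks and 60.6 and 75.3 CPM at 8 weeks, with log2 differences of -1.60 with both 8-week libraries (adjusted p = 0.0772) and -1.46 against replicate 1 alone (adjusted p = 0.00944). The 13-week libraries of Kcnip3 were below all the others, whereas for Kcnip1, at 27.2 and 37.6 against 58.1 and 85.6 CPM, the 13-week WT library at 23.1 CPM was lower still. Interneurons, which are a small part of striatum, gave 0 of 14 genes with both libraries (edgeR, with 2 by DESeq2) and 4 lower against replicate 1 alone, Sst, Npy, Nos1 and Chat, where 5.32% of all genes were lower. Npy, a peptide of the interneurons that also hold somatostatin, was at 74.2 and 71.8 against 239 and 125 CPM, with log2 differences of -1.28 with both 8-week libraries (adjusted p = 0.108) and -1.71 against replicate 1 alone (adjusted p = 2.86e-05). Sst was at 143 and 110.5 against 272 and 215 CPM, with log2 differences of -0.91 with both 8-week libraries (adjusted p = 0.0972) and -1.10 against replicate 1 alone (adjusted p = 0.00152). Chat, the enzyme of acetylcholine synthesis, was at 21.4 and 24.6 against 63.3 and 39.1 CPM, with log2 differences of -1.12 with both 8-week libraries (adjusted p = 0.334) and -1.46 against replicate 1 alone (adjusted p = 0.0328), and overlaps Slc18a3 on the same strand.

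Housekeeping pathways showed few calls. Of 75 subunits of oxidative phosphorylation, Cox5b passed with both 8-week libraries and 4 were lower against replicate 1 alone, which is close to the 5.32% of all genes. Ndufa12, a subunit of complex I, was at 53.6 and 46.8 CPM at 13 weeks and 104 and 142 CPM at 8 weeks, with log2 differences of -1.27 with both 8-week libraries (adjusted p = 0.0641) and -1.04 against replicate 1 alone (adjusted p = 0.00297), but the 13-week WT library was at 51.0 CPM. Of 73 ribosomal protein genes, 0 passed with both libraries (edgeR, with 1 by DESeq2). Their median log2 fold change was 0.15 with both libraries and 0.0068 against replicate 1 alone. Of 41 autophagy genes, 0 passed with both (edgeR and DESeq2). Optn was at 7.62 and 13.5 against 0.814 and 7.50 CPM. Replicate 2 of the 8-week group lay just under the 13-week libraries for Optn, a receptor of selective autophagy, with log2 differences of 1.35 with both 8-week libraries (adjusted p = 0.529) and 3.68 against replicate 1 alone (adjusted p = 0.00166). Ulk1, the kinase that starts autophagy, was at 95.8 and 106 against 70.1 and 81.2 CPM and did not pass in either fit, with log2 differences of 0.44 with both 8-week libraries (adjusted p = 0.295) and 0.53 against replicate 1 alone (adjusted p = 0.0829).

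Of 29 heat shock genes, 0 passed with both 8-week libraries (edgeR, with 1 by DESeq2). Their median log2 fold change was 0.11 with both libraries and 0.17 against replicate 1 alone. Hspa8, the constitutive HSP70, was at 661 and 632 CPM at 13 weeks and 355 and 515 CPM at 8 weeks, with log2 differences of 0.60 with both 8-week libraries (adjusted p = 0.262) and 0.87 against replicate 1 alone (adjusted p = 0.00287), while Hsph1, an HSP110 chaperone, was at 161 and 158 against 269 and 232 CPM with log2 differences of -0.62 with both 8-week libraries (adjusted p = 0.154) and -0.75 against replicate 1 alone (adjusted p = 0.00956). Neither overlapped between the ages, and their directions were opposite. Of 23 cholesterol synthesis genes, 0 passed with both libraries (edgeR, with 7 by DESeq2, which called 3.11% of all genes). Their median log2 fold change without replicate 1, -1.04, was larger in size than the -0.31 against replicate 1 alone. The part of the oligodendrocyte transcripts of replicate 2 in this was not tested. Msmo1, a sterol oxidase, was at 44.7 and 39.0 against 76.5 and 152 CPM, with 93.3 and 109.7 CPM in WT mice and log2 differences of -1.43 with both 8-week libraries (adjusted p = 0.0985) and -0.87 against replicate 1 alone (adjusted p = 0.01). Fdft1, squalene synthase, was at 24.4 and 34.0 against 55.6 and 60.4 CPM, with log2 differences of -0.96 with both 8-week libraries (adjusted p = 0.0985) and -0.93 against replicate 1 alone (adjusted p = 0.0223). In both genes the 13-week libraries were below the 8-week and WT libraries.

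Of 65 developmental transcription factors 29 were tested with both 8-week libraries and 0 passed (edgeR, with 2 by DESeq2). Against replicate 1 alone 33 were tested, and 3 were higher and 1 lower, but members that are high only at 13 weeks entered the test through that group, so this count says nothing of the list as a whole. Pou4f1, a factor of sensory and habenular neurons, had 44 and 57 counts at 13 weeks, 0 and 1 counts at 8 weeks and 0 and 1 counts in WT mice, with an adjusted p of 0.0743 with both libraries and 0.00767 against replicate 1 alone. Its fitted fold change depends on the prior count and is not given. The 1 count of Pou4f1 at 8 weeks was in replicate 2, where the listed thalamus and habenula markers were high. In HD cortex its adjusted p between the same ages was 0.027 (edgeR). The source of these transcripts was not tested. Onecut2, another factor of the list, was at 151 and 118 CPM at 13 weeks, 68.1 and 57.4 CPM at 8 weeks and 108 and 94.8 CPM in WT mice. Its log2 differences were 1.13 with both 8-week libraries (adjusted p = 0.115) and 0.98 against replicate 1 alone. In both genes the 13-week libraries were above all the others.

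The genes that the study followed were described last. FBXW7 is the substrate receptor of an SCF ubiquitin ligase, USP28 a deubiquitinase that opposes it, and CHK2 (Chek2) a kinase of the response to DNA breaks. Of 68 tested DNA damage response genes, 0 passed with both 8-week libraries by edgeR. DESeq2 called 2 lower and 1 higher, where it called 3.11% of all genes in either direction. Both 13-week libraries lay below both 8-week libraries in 11 of the 68 genes and above them in 14. Over all genes tested these shares were 18.8% and 17.8%, so the list was near the shares of all genes. The median log2 fold change of the list was 0.10 with both 8-week libraries, 0.05 against replicate 1 alone and 0.18 without replicate 1.

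Fbxw7 was at 163 and 139 CPM at 13 weeks and 254 and 239 CPM at 8 weeks, with 263 and 328 CPM in WT mice, so both 13-week libraries were below all the others. Fbxw7 had a log2 fold change of -0.68 (SE 0.15, adjusted p = 0.111) with both 8-week libraries and -0.75 (SE 0.15, adjusted p = 0.00764) against replicate 1 alone. Polb, the polymerase of base excision repair, was at 23.9 and 22.9 against 46.7 and 49.5 CPM, with 55.6 and 50.1 CPM in WT mice and log2 differences of -1.01 with both 8-week libraries (adjusted p = 0.08) and -0.99 against replicate 1 alone (adjusted p = 0.0135). Usp28 was at 2.32 and 3.32 against 8.96 and 6.86 CPM, with 10.2 and 14.3 CPM in WT mice and log2 differences of -1.46 with both 8-week libraries (adjusted p = 0.229) and -1.66 against replicate 1 alone (adjusted p = 0.0891). The 13-week libraries of Polb and Usp28 were likewise below all the others, and Usp28 passed in neither fit. Xpa, a damage recognition factor of nucleotide excision repair, was at 46.4 and 40.6 CPM against 22.2 and 18.5 CPM, with 22.4 and 25.6 CPM in WT mice and log2 differences of 1.12 with both 8-week libraries (adjusted p = 0.0743) and 0.97 against replicate 1 alone (adjusted p = 0.0278).

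Chek2 was close to the limit of detection, at 2.60 and 0.857 CPM from 28 and 8 counts at 13 weeks and 1.28 and 1.501 CPM from 11 and 14 counts at 8 weeks, and a change was not detectable at this depth, with log2 differences of 0.35 with both 8-week libraries (adjusted p = 0.913) and 0.44 against replicate 1 alone (adjusted p = 0.895) and a 95% interval with both libraries from -1.62 to 2.32. The 2 libraries at 13 weeks lay on either side of those at 8 weeks. Trp53, the tumour suppressor p53, was at 3.25 and 7.29 against 6.75 and 4.50 CPM, with log2 differences of -0.067 with both 8-week libraries (adjusted p = 0.974) and -0.36 against replicate 1 alone (adjusted p = 0.795) and a 95% interval with both libraries from -1.26 to 1.12. Cops6, the COP9 signalosome subunit CSN6, was at 54.0 and 68.9 against 58.9 and 63.0 CPM, with log2 differences of 0.039 with both 8-week libraries (adjusted p = 0.958) and 0.063 against replicate 1 alone (adjusted p = 0.922) and an interval from -0.37 to 0.45. For Chek2, Trp53 and Cops6 the sign of the difference turned when a single 13-week library was left out. Mouse Htt, which the transgene leaves in place, was at 20.8 and 27.9 against 32.2 and 30.02 CPM, with log2 differences of -0.33 with both 8-week libraries (adjusted p = 0.61) and -0.40 against replicate 1 alone (adjusted p = 0.443). Socs2, a suppressor of cytokine signalling, was at 13.3 and 10.9 against 24.3 and 32.3 CPM with 29.0 and 26.9 CPM in WT mice and log2 differences of -1.20 with both 8-week libraries (adjusted p = 0.15) and -1.0 against replicate 1 alone (adjusted p = 0.0782), and 0 of the other 6 tested SOCS genes passed with both libraries (edgeR, with 1 of the family by DESeq2).

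Markers of glia and vessels come last. Of 20 oligodendrocyte markers, 0 passed with both 8-week libraries (edgeR and DESeq2). Their median log2 fold change was 0.95 against replicate 1 alone and -1.65 without replicate 1. The summed level of these markers was 61.7% of the WT mean in replicate 1 of the 8-week group and 375% in replicate 2. At 13 weeks the mean of the 2 HD libraries was 109% of WT. Gpr17, a receptor of oligodendrocyte precursors, was at 8.37 and 10.6 against 21.1 and 45.9 CPM, with 20.04 and 14.7 CPM in WT mice and log2 differences of -1.80 with both 8-week libraries (adjusted p = 0.0961) and -1.15 against replicate 1 alone (adjusted p = 0.035), and both 13-week libraries were below the others. Of 18 astrocyte markers 0 passed with both 8-week libraries (edgeR, with 1 by DESeq2). Their median log2 fold change was -0.23 with both libraries, 0.019 against replicate 1 alone and -0.61 without replicate 1. The glutamate transporter Slc1a2 was at 1220.5 and 1362 against 2552 and 2084 CPM. The WT libraries were at 1859 and 1828 CPM, so both 13-week libraries of Slc1a2 were below all the others. Its log2 differences were -0.81 with both 8-week libraries (adjusted p = 0.0961) and -0.98 against replicate 1 alone. Of 18 endothelial and mural markers 0 passed in either fit (edgeR, and 0 by DESeq2 with both libraries). Ramp3, a thalamus marker, was at 8.46 and 12 against 16.1 and 294 CPM, and replicate 1 of the 8-week group was therefore above the 13-week libraries as well. Of 19 tested thalamus and habenula markers 0 passed with both 8-week libraries (edgeR, with 3 by DESeq2). The median log2 fold change of that list was -1.72 with both libraries, 0.038 against replicate 1 alone and -2.61 without replicate 1. Of the choroid plexus and ependyma markers 0 of 11 passed with both libraries (edgeR and DESeq2) and 0 of 12 against replicate 1 alone. Of 13 tested markers of pallidum, septum and hypothalamus 0 passed with both libraries (edgeR, with 1 by DESeq2). The median log2 fold change of this list was -0.50 with both libraries and 0.14 against replicate 1 alone.

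**Figure D5:**
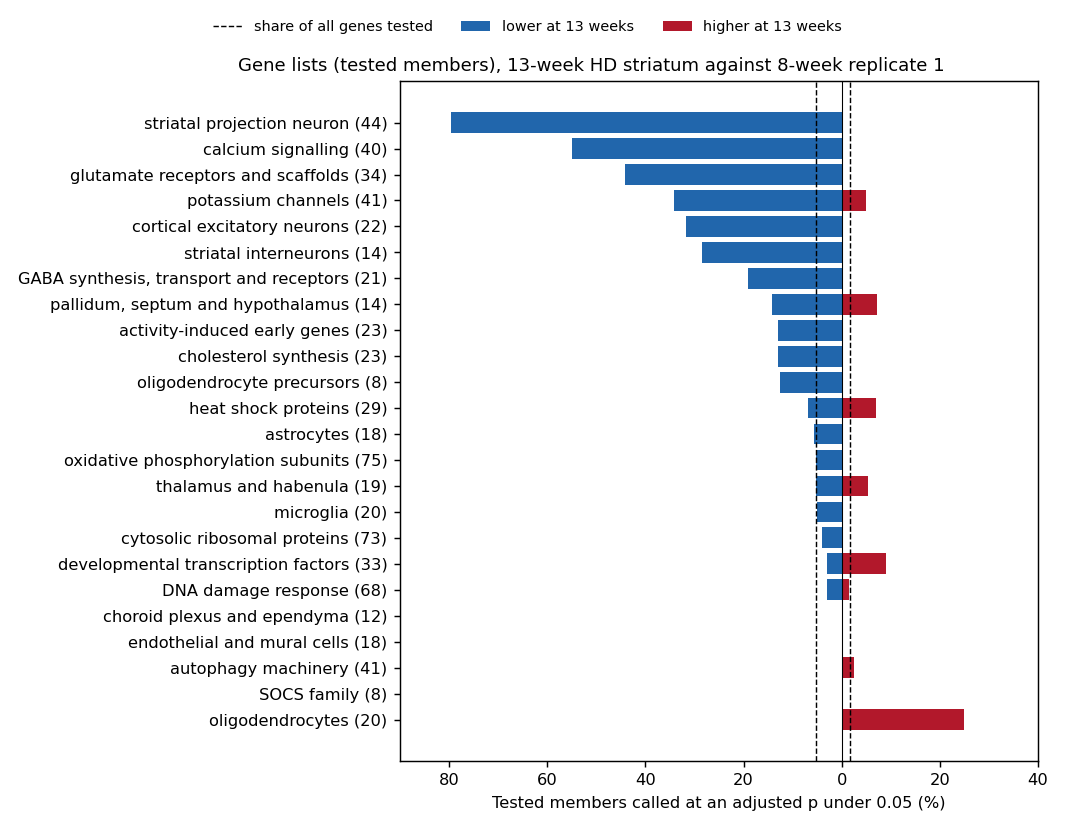
Share of the tested members of each gene list (number in parentheses) called lower (blue, to the left) or higher (red, to the right) at 13 weeks against replicate 1 of the 8-week group alone, with dashed lines at the share over all genes tested. The projection neuron and calcium lists lie farthest to the left of the dashed line. Oligodendrocyte markers, which lie to the right, are set against a replicate 1 whose oligodendrocyte sum was 61.7% of the WT mean.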

How the data were processed

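The authors sequenced 12 mouse striatal and cortical libraries (QuantSeq 3′ kit, 500 ng of total RNA) and deposited raw read counts per gene, without normalisation, 1 table per library. The submitters' processing notes name mm10, Bowtie2 and bedtools without versions. The counting rule, its annotation and its use of strand were not given in the sources used here. Each table had 23282 rows, 44 of which repeat a symbol (7 tested, kept as rows of their own).

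Counts of the 8 HD libraries were filtered (filterByExpr, minimum count 10), scaled by TMM and fitted in edgeR 4.0.16 (R 4.3.3) with robust quasi-likelihood dispersions and 1 mean per group, and striatal 13-week was set against 8-week with Benjamini-Hochberg adjustment at 0.05. CPM used TMM factors over all 12 libraries. The same fit was repeated without replicate 2 of the 8-week striatum. Each group held 2 libraries, which limits the precision. Alternatives were DESeq2 1.42.0, other filters, upper-quartile scaling, a replicate block, a threshold of 0.01, Rn45s left out, the 4 striatal libraries alone and each HD library left out, and 3 alternatives were chosen after seeing the data. Gene lists (24) and members were chosen with earlier results of these data known. Named genes were the up to 8 highest and 8 lowest of those called in both fits, without overlap and with a mean of at least 5 CPM, the up to 6 members of each list with the smallest p, and the genes the study followed. Other names are said to be outside this rule. Positions are from GENCODE M21 (GRCm38), and promoters from RefSeq GRCm38.p6. The scripts were tested on simulated counts. The result for 1 gene that the rule names is not reported here.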

Additional observations from a re-analysis of the deposited data

How the results depend on the processing

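The number of genes passing in striatum, 23, was 24 with upper-quartile scaling, 26 with at least 1 CPM in every library and 23 without Rn45s, and moved to 447 with DESeq2, to 163 (25 higher and 138 lower) without a filter on counts, to 6 at a threshold of 0.01 and to 0 (926 at an unadjusted p under 0.05) with the 4 striatal libraries alone. Leaving out single HD libraries gave 0 to 1083. Then 3 alternatives were chosen after seeing the data, all without replicate 2 of the 8-week striatum: DESeq2 gave 1161, the 3 remaining striatal libraries alone 408 (22 of the 23 shared) and at least 1 CPM in every library 1057. The test of striatum against cortex moved from 0 to 17 with DESeq2 and to 1 without the filter, and ranged from 0 to 168 when single HD libraries were left out. With the replicate number as a block 36 genes passed, 31 lower and 5 higher, and all 23 were among them. The replicates share only a number, which also follows sex, and the correlation of their deviations in striatum was 0.20 over 14392 genes. Under the block Ttr turned to 1.66.

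Some genes changed sign when single libraries were left out. Their log2 differences ranged from -3.31 to 7.61 for Ttr, -3.50 to 2.11 for Slc17a6, -0.15 to 0.20 for Cops6, -0.66 to 0.92 for Chek2, -0.76 to 0.41 for Trp53, -1.46 to 0.56 for Tac1, -3.58 to 11.47 for Shox2, -1.05 to 0.40 for Foxp1, -1.18 to 0.24 for Zfp503 and -1.05 to 1.43 for Cbln2. The cause was not tested. None of the 97 genes recomputed (84 of them at 1 CPM in every library) changed sign with DESeq2, upper-quartile scaling, either filter or the 4 striatal libraries alone.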

Other observations

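A pair of genes outside the lists, picked after their values were seen, differed between regions without replicate 2 of the 8-week striatum. Zfp503, a zinc finger repressor of striatal development, was at 29.6 and 25.7 CPM in 13-week and 62.9 and 23.6 CPM in 8-week HD striatum. Its log2 difference was -1.18 in striatum against replicate 1 alone and 1.82 in cortex, and striatum less cortex was -3.03 (adjusted p = 0.00118) by edgeR. Cbln2, a secreted organiser of synapses, was at 7.81 and 4.07 CPM against 2.21 and 12.5 CPM, with a log2 difference of 1.43 in striatum against replicate 1 alone, -2.34 in cortex and 3.75 (adjusted p = 0.00331) between regions. In both genes replicate 2 of the 8-week group lay on the other side of the 13-week libraries from replicate 1, and neither passed with all 8 HD libraries.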
